A study of Arabidopsis thaliana with 6 samples.

Results

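The miR159 and miR319 families of Arabidopsis thaliana were examined in small RNA libraries from whole seedlings. The members were the rows of the deposited miRNA table that list a miR159 or miR319 locus, on either arm of the precursor. That gave 6 of the 294 mature sequences in the table, 4 of miR159 and 2 of miR319, and they stand for 6 loci, MIR159a, MIR159b, MIR159c, MIR319a, MIR319b and MIR319c. The seedlings had been exposed for 90 min to 1 µM epibrassinolide (epiBL), a brassinosteroid hormone, or to the solvent in which it was dissolved, here called control. Each group held 3 biological replicates. Plants of both groups carried the bri1-5 mutation of the brassinosteroid receptor BRI1 together with a Flag-tagged wild-type BRI1 driven by its native promoter, and they were grown in shaken liquid medium. No library from plants without the transgene or the mutation entered the comparison, and the table holds no miRNA that marks a single tissue, so the seedling label could not be checked against markers.

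miR159 and miR319 are old, related plant miRNA families whose mature sequences are nearly the same, yet they act on different transcription factors. miR159 guides the silencing of GAMYB-like MYB mRNAs such as MYB33 and MYB65, and plants without miR159a and miR159b are stunted with curled leaves. miR319 guides the cleavage of a group of TCP mRNAs such as TCP4, whose proteins stop cell division in growing leaves, and excess miR319 gives large, crinkled leaves.

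The mature sequences are printed as the table gives them, in DNA letters, because the families and their members differ by so few bases. Capitals mark the seed, bases 2 to 8 counted from the 5′ end. Each sequence is 21 nt long.
miR159a-3p: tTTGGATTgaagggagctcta
miR159b-3p: tTTGGATTgaagggagctctt
miR159c-3p: tTTGGATTgaagggagctcct
miR319a/b-3p: tTGGACTGaagggagctccct
miR319c-3p: tTGGACTGaagggagctcctt
miR159b-5p: gAGCTCCTtgaagttcaatgg

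The 3 miR159 3p sequences share a seed, TTGGATT, and the 2 miR319 sequences share another, TGGACTG. Within a family the differences lie at the last bases. miR159b-3p departs from miR159a-3p by A21T, and miR159c-3p departs from miR159b-3p by T20C (the first-named base is that of the sequence the other is set against, counted from 1 at the 5′ end). miR319c-3p departs from miR319a/b-3p by C20T. Shifted by 1 base, miR319a/b-3p matches miR159a-3p at 17 of 20 bases, and miR319c-3p matches miR159c-3p at 19 of 20. The counts are of reads that match a mature sequence exactly, so a single misread base near the 3′ end can move a read from one row to its neighbour.

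All 6 sequences were found in the TAIR10.1 assembly within a precursor of the RefSeq annotation, and none of these places overlaps another annotated gene. miR159a-3p lies at chr1:27713234-27713254 on the minus strand. miR159b-5p and miR159b-3p lie on the plus strand at chr1:6220650-6220670 and chr1:6220813-6220833. miR159c-3p lies at chr2:18994826-18994846 and miR319c-3p at chr2:17029870-17029890, both on the plus strand. miR319a/b-3p matches 2 places, MIR319a at chr4:12353109-12353129 on the plus strand and MIR319b at chr5:16660469-16660489 on the minus strand, and its reads cannot be assigned to one of them. The precursors are long for plant miRNAs, at 172 nt for MIR319b to 225 nt for MIR159c. MIR159b is the only locus of the 6 with both arms in the table. Its 196-nt precursor (chr1:6220646-6220841, plus strand, RefSeq, TAIR10.1) is shown with the 2 counted arms in capitals, which sit at its outer ends with a long stem and loop between them.
MIR159b: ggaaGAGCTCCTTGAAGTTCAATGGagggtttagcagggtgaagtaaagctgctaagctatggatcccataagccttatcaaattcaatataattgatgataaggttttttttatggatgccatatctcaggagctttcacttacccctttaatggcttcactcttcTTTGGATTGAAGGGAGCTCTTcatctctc

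The sites through which the families are known to act are shown from the same assembly, with capitals for bases that form a Watson-Crick pair with the guide, miR159a-3p for MYB33 and MYB101 and miR319a/b-3p for TCP4 and TCP2. Each is the stretch of the annotated mRNA most complementary to any 3p guide of its family, and each lies in the coding sequence. The best-fitting guide was miR159a-3p at the MYB sites and miR319c-3p at the TCP sites. The mRNAs themselves were not measured in these libraries.
MYB33: TgGAGCTCCCTTCAtTCCAAt
MYB101: TAGAGCTtCCTTCAAaCCAAA
TCP4: gaGGgGtcCCCTTCAGTCCAg
TCP2: caGGgGgaCCCTTCAGTCCAA

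The MYB33 site (chr5:1839579-1839599, plus strand) pairs with miR159a-3p at 18 of 21 bases, with 1 G:U pair and 2 mismatches. The MYB65 site has the same letters. The MYB101 site (chr2:13783168-13783188, minus strand) pairs at 19 bases. The TCP4 site (chr3:5063300-5063320, plus strand) pairs with miR319a/b-3p at 15 bases, with 4 G:U pairs and 2 mismatches. The TCP2 site (chr4:10163402-10163422, minus strand) pairs at 16 bases. At all 5 TCP mRNAs looked up, TCP2, TCP3, TCP4, TCP10 and TCP24, miR319c-3p had 1 mismatch fewer than miR319a/b-3p. These sites were picked as the best fit over both guides, which was miR319c-3p each time. Against the MYB33 site miR319a/b-3p also reached 18 paired bases when shifted along it, with 0 G:U pairs and 3 mismatches. Against the MYB101 site it reached 15 paired bases, with 1 G:U pair and 5 mismatches. Treated alike, miR159a-3p paired at 13 bases of the TCP4 site, with 5 G:U pairs and 3 mismatches. These counts describe letters only, and no binding or cleavage was measured.

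The libraries held 2050074 (epiBL replicate 3) to 4482479 (control replicate 1) reads that match an annotated mature miRNA. The 2 families together took 5.48%, 7.80% and 5.67% of these reads in epiBL replicates 1, 2 and 3, and 5.98%, 7.64% and 7.08% in control replicates 1, 2 and 3. Each group thus held libraries with a low and with a high share, and the groups overlapped. Levels are given as CPM, counts scaled to a common library total, here with edgeR's TMM factors, which reduce the effect of a few very abundant miRNAs on all others. Differences are log2 fold changes of epiBL over control from edgeR's quasi-likelihood test, fitted on all miRNAs with Benjamini-Hochberg adjustment and a threshold of 0.05, with 95% intervals. In bulk RNA, a change in the RNA of each cell cannot be told apart from a change in how many cells of a kind were present.

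Of the 6 members, 5 had enough reads to be tested and 0 differed between epiBL and control, while 8.11% of the 148 miRNAs tested did, 2.7% higher and 5.41% lower. The epiBL and control libraries overlapped in all 5, and did not overlap in 27.7% of the 148. None of the 5 had an unadjusted p under 0.05 in edgeR, in DESeq2 or in limma-trend. The most abundant guide strands, miR159a-3p, miR159b-3p and miR319a/b-3p, were at nearly equal levels in treated and control seedlings. Their intervals lay between 0.815 and 1.2 as folds, and that of miR319c-3p ran from 0.939 to 1.34. The median log2 fold change of the 5 was 0.03, beside 0.0046 over all 148. The scarce passenger strand miR159b-5p, which was too low to be tested, had fewer reads and a lower CPM in each epiBL library than in any control library. Of the 257 sequences with a read in any library, 17.9% had groups that did not overlap in CPM.

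miR159a-3p, a guide of the MYB33 and MYB65 mRNAs and the most abundant member, had 35859, 47845 and 41312 CPM in epiBL replicates 1, 2 and 3, against 38409, 43659 and 43318 CPM in control replicates 1, 2 and 3. The epiBL libraries held both the lowest and the highest value, and the controls lay between. The means were 41672 ± 6001 CPM with epiBL and 41795 ± 2938 CPM in controls (SD, n = 3 each). That is a log2 fold change of -0.0043 (SE 0.12, interval -0.26 to 0.25, edgeR adjusted p = 0.979). As a fold, that interval runs from 0.835 to 1.19. miR159a-3p was the fifth most abundant sequence in the table.

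miR159b-3p, the second guide of the family, which acts redundantly with miR159a, had 17401, 20540 and 18284 CPM in epiBL replicates 1, 2 and 3, against 16836, 19832 and 18381 CPM in control replicates 1, 2 and 3. The groups overlapped, with the highest value in epiBL replicate 2 and the lowest in control replicate 1. The log2 fold change was 0.03 (SE 0.11, interval -0.20 to 0.26, edgeR adjusted p = 0.919), or 0.872 to 1.2 as a fold.

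miR159c-3p, the rarest miR159 guide, had 49, 51 and 20 reads in epiBL replicates 1, 2 and 3 and 33, 50 and 35 reads in control replicates 1, 2 and 3. Scaled to depth, these were 13.9, 11.8 and 11.2 CPM with epiBL, against 7.38, 11.7 and 8.49 CPM in controls. The epiBL values were the higher ones but for control replicate 2, which lay within their range. The log2 fold change was 0.44 (SE 0.26, edgeR adjusted p = 0.292), and its interval from -0.12 to 0.99 is the widest of the 5. miR159c-3p reads amounted to 0.0662% ± 0.0119 of those of its 1-base neighbour miR159b-3p with epiBL and 0.0496% ± 0.00814 in controls (SD, n = 3 each). How many of them are misread copies of that neighbour was not tested.

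**Figure D1:**
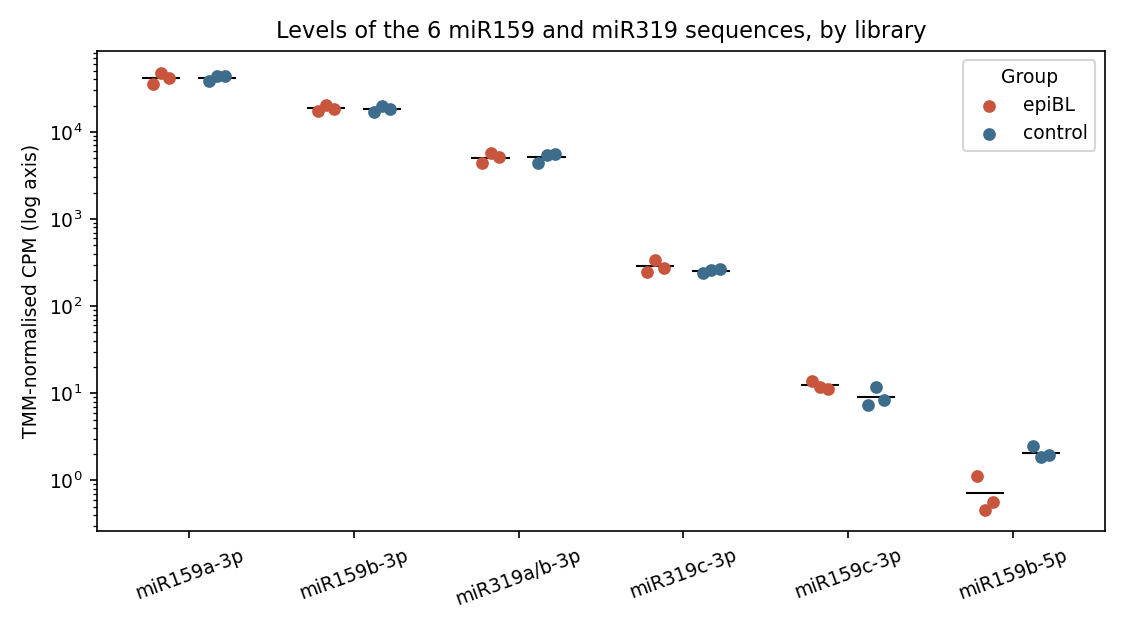
Level of each member in each library, in TMM-normalised CPM on a log axis. Points are libraries, epiBL left of control, and bars are group means. The groups overlap for the 5 guide strands, and for miR159b-5p the 3 epiBL points (0.464 to 1.13 CPM) lie under the 3 control points (1.87 to 2.46 CPM).

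miR319a/b-3p, the main guide against the TCP mRNAs, had 4335, 5689 and 5115 CPM in epiBL replicates 1, 2 and 3, against 4441, 5492 and 5566 CPM in control replicates 1, 2 and 3. As with miR159a-3p, the epiBL libraries held both extremes. The log2 fold change was -0.0338 (SE 0.12, interval -0.29 to 0.23, edgeR adjusted p = 0.919), or 0.815 to 1.17 as a fold.

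miR319c-3p, from a locus of its own, had 249, 338 and 272 CPM in epiBL replicates 1, 2 and 3, against 237, 262 and 269 CPM in control replicates 1, 2 and 3. epiBL replicate 2 stood above all the others, and epiBL replicate 1 lay among the controls. The log2 fold change was 0.16 (SE 0.12, interval -0.09 to 0.42, edgeR adjusted p = 0.407). Without epiBL replicate 2 it was 0.034, and without epiBL replicate 1 it was 0.28, neither past the threshold.

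Summed per family, miR159 stood at 60900 ± 6928 CPM with epiBL and 59642 ± 4700 CPM in controls, and miR319 at 5373 ± 651 CPM with epiBL and 5375 ± 648 CPM in controls (SD, n = 3 each). The log2 fold changes were 0.03 (SE 0.11, interval -0.20 to 0.26, adjusted p = 0.981) for miR159 and -0.00044 (SE 0.11, interval -0.22 to 0.22, adjusted p = 0.997) for miR319. Of the 85 families tested in the same edgeR fit, 8.24% passed. Both families had 0 calls also in DESeq2, and 0 unadjusted p under 0.05 in either tool. The matching shares over all 85 families are not given here.

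**Figure D2:**
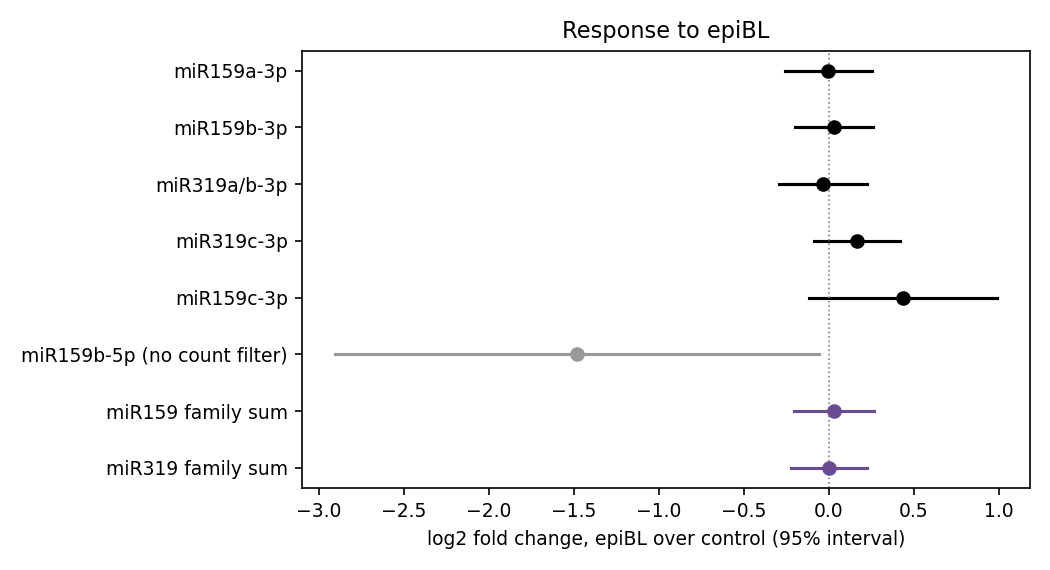
Log2 fold change of epiBL over control with its 95% interval for the 5 members tested (black), for miR159b-5p in a fit without a count filter (grey) and for the 2 family sums (purple). The intervals of the 5 tested members and both sums include 0, and that of miR159b-5p runs from -2.90 to -0.0582.

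miR159b-5p, the strand that is mostly degraded when the miR159b duplex is loaded, had 4, 2 and 1 reads in epiBL replicates 1, 2 and 3, against 11, 8 and 8 reads in control replicates 1, 2 and 3. The exact Poisson intervals of these counts, which cover counting error only, are wide, for example 1.09 to 10.2 for the 4 reads and 3.45 to 15.8 for the 8 reads. In CPM the means were 0.718 ± 0.361 with epiBL and 2.09 ± 0.321 in controls (SD, n = 3 each), a ratio of 0.344. The 3 epiBL libraries lay under the 3 controls, with a two-sided exact permutation p of 0.1, the smallest that 3 against 3 allows. Among the 257 sequences with a read in any library, 17.9% had groups that did not overlap. Fitted without a count filter, its log2 fold change was -1.48 (SE 0.72, unadjusted p = 0.0413) and did not pass in edgeR after adjustment over 257 sequences (adjusted p = 0.250), where 5.06% passed. The authors' deposited table gives it a log2 fold change of -1.48 with an unadjusted p of 0.0156. The libraries leave this strand at the edge of detection, since 3 reads correspond to 0.670 to 1.68 CPM at their depths on the TMM scale.

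Arm use could be compared at MIR159b only. Its 5p reads amounted to 0.00394% ± 0.00226 of the 3p reads with epiBL and 0.0115% ± 0.00272 in controls (SD, n = 3 each). The pair was below the mean of 10 reads per arm set for that comparison, in which 2.17% of 46 pairs passed. With a mean of 1 read per arm the log2 ratio of 5p to 3p differed by -1.39, epiBL minus control (SE 0.38, limma adjusted p = 0.204). It had the third smallest p of 63 pairs, and 0% of the 63 passed.

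The order of levels was the same in all 6 libraries. miR159a-3p was highest, 2.25 times miR159b-3p on mean CPM, and miR159b-3p was 3.63 times miR319a/b-3p. That sequence was 18.8 times miR319c-3p, which was 25.2 times miR159c-3p, and miR159c-3p was 7.65 times miR159b-5p. As all are 21 nt long, no correction for length was needed, although sequences can differ in how well they are cloned into libraries. At each step the lowest library of the higher sequence lay above the highest library of the lower one. The miR159 3p strands together outnumbered those of miR319 by 11.2 ± 0.447 times (SD over 6 libraries, range 10.6 to 11.8).

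Shares within a family need no scaling between libraries. miR159b-3p took 31.1% ± 1.37 of the miR159 3p reads with epiBL and 30.5% ± 0.722 in controls (SD, n = 3 each, exact permutation p = 0.6). miR159a-3p took nearly all the rest, 68.9% ± 1.38 with epiBL and 69.5% ± 0.724 in controls (SD, n = 3 each). The miR319 share of the 3p reads of both families was 8.10% ± 0.183 with epiBL and 8.25% ± 0.420 in controls (SD, n = 3 each, exact permutation p = 0.6). miR159c-3p took 0.0207% ± 0.00468 of the miR159 3p reads with epiBL and 0.0152% ± 0.00281 in controls (SD, n = 3 each, exact permutation p = 0.2). Without epiBL replicate 1 that difference was 0.00286 points, against 0.00553 points with all libraries.

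The share of miR319c-3p among miR319 3p reads was 5.42%, 5.60% and 5.05% in epiBL replicates 1, 2 and 3, against 5.07%, 4.55% and 4.60% in control replicates 1, 2 and 3. The lowest epiBL library lay just under the highest control library, and the rest of the groups were apart. Their 95% Wilson intervals, which cover counting error only, run for example from 4.63% to 5.51% in epiBL replicate 3 and from 4.78% to 5.38% in control replicate 1. The means were 5.36% ± 0.280 with epiBL and 4.74% ± 0.289 in controls (SD, n = 3 each, exact permutation p = 0.2). Over the 4 shares tested, all two-sided, the adjusted p was 0.4 for miR319c-3p and miR159c-3p and 0.6 for the other 2.

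**Figure D3:**
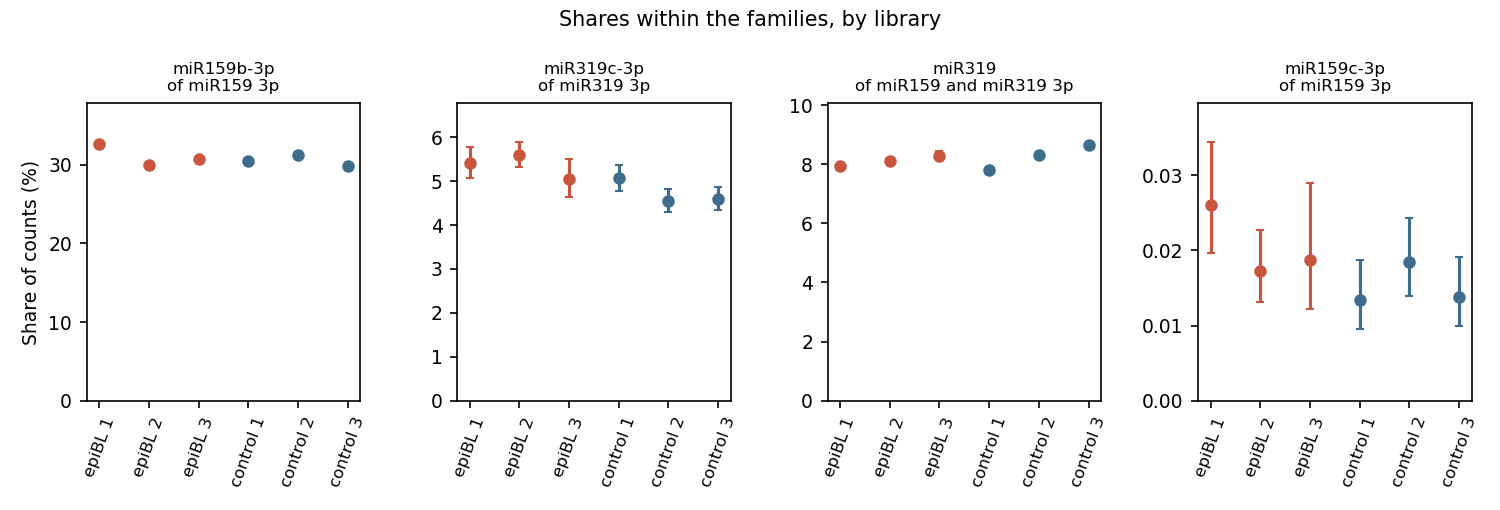
Share of reads held by a member or family in each library, in percent, with 95% Wilson intervals and each vertical axis starting at 0. miR159b-3p keeps close to 31% of miR159 3p reads in all libraries, and miR319c-3p lies between 5.05% and 5.60% with epiBL and between 4.55% and 5.07% in controls.

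The libraries of each group differed among themselves in miR159a-3p and miR319a/b-3p. On the log2 scale miR159a-3p lay 0.20 above its mean over 6 libraries in epiBL replicate 2, but at -0.21 in epiBL replicate 1 and -0.11 in control replicate 1. miR319a/b-3p lay at 0.16, -0.23 and -0.19 in the same libraries. Across the 6 libraries these sequences had a Pearson r of 0.95 (exact permutation p = 0.00278, adjusted p = 0.0167 over 6 pairs of members) and a Spearman rho of 0.943 (exact permutation p = 0.0167, adjusted p = 0.05). Pearson's r was 0.992 without the 2 libraries farthest from the median of miR159a-3p, epiBL replicates 1 and 2, which leaves 4 libraries. For miR159a-3p and miR159b-3p, r was 0.893 (exact permutation p = 0.0222, adjusted p = 0.055) and rho 0.943 (exact permutation p = 0.0167, adjusted p = 0.05), and r was 0.908 without the same 2 libraries. The other 4 pairs had r of 0.730 to 0.868, with adjusted p of 0.055 to 0.0639, and rho of 0.714 to 0.886, with adjusted p of 0.0667 to 0.136 (exact permutation tests). Without the 2 libraries farthest from the median of 1 member of each pair, their r was 0.387 to 0.783. The lowest was that of miR159b-3p with miR319c-3p, without epiBL replicate 2 and control replicate 1. An r over the 4 libraries left is imprecise. Members share the scaling factor of their library, and sequences 1 base apart can share reads through misread bases. miR159a-3p and miR319a/b-3p are not such neighbours, as they match at 17 of 20 bases when shifted by 1. The part of either in these correlations was not tested.

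**Figure D4:**
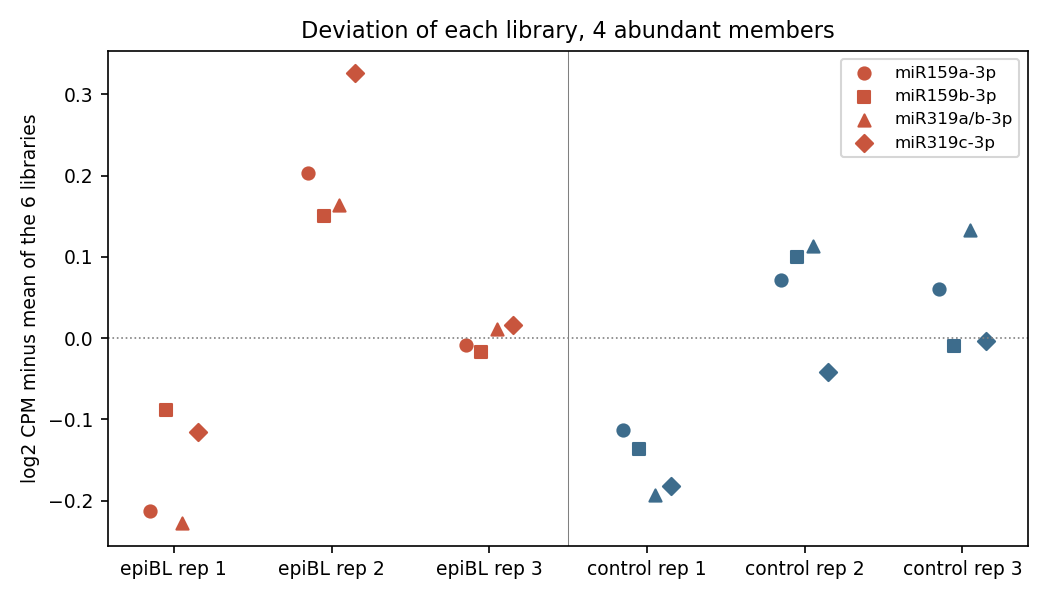
Deviation of the 4 abundant members from their own mean over the 6 libraries, in log2 CPM, with epiBL libraries in red on the left and control libraries in blue on the right. All 4 members lie above 0 in epiBL replicate 2 and below 0 in epiBL replicate 1 and control replicate 1.

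Among 143 other miRNAs tested, those whose log2 CPM over the 6 libraries was most like that of miR159a-3p were miR164b-3p (Pearson r = 0.962, Spearman rho = 0.943), miR394a/b-5p (r = 0.939, rho = 0.943) and miR3932b-5p (r = 0.709, rho = 0.714). The same sequences were most like miR319a/b-3p, in the order miR394a/b-5p (r = 0.932), miR164b-3p (r = 0.856) and miR3932b-5p (r = 0.727). They were picked for high r, so no p is given. Without the 2 farthest libraries r with miR159a-3p was 0.886 for miR164b-3p and 0.999 for miR394a/b-5p. Like miR159a-3p, miR159b-3p, miR319a/b-3p and miR319c-3p, miR164b-3p and miR394a/b-5p were highest in epiBL replicate 2, at 46.4 CPM for miR164b-3p and 253 CPM for miR394a/b-5p.

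A chosen list of other families that act on developmental transcription factors or auxin response held miR160, miR164, miR165, miR166, miR167, miR390 and miR396. It is not complete, and it leaves out miR156, miR157, miR170, miR171, miR172 and miR393. Among those left out, edgeR called miR156g-5p (log2 fold change 2.00, adjusted p = 2.36e-05) and miR170/miR171a-5p (0.38, adjusted p = 0.0403) higher, and called none lower. The listed families had 21 sequences tested. Of these 0 were higher and 0 lower in edgeR after adjustment, with 4 (19.0%) at an unadjusted p under 0.05, 2 higher and 2 lower, beside 23.6% of all 148 miRNAs. DESeq2 called 1 of them (miR167c-3p, higher), or 4.76%, beside 10.8% of all. It gave 6 (28.6%) an unadjusted p under 0.05, beside 23.0% of all. limma-trend called 0 and gave 4 an unadjusted p under 0.05. Their median log2 fold change was 0.0158. The sequence with the smallest p was miR167d-5p, of a family that acts on auxin response factors, at 1077 ± 130 CPM with epiBL and 1336 ± 103 CPM in controls (SD, n = 3 each, log2 fold change -0.31, SE 0.11, edgeR adjusted p = 0.0771). The most abundant was miR166a/b/c/d/e/f/g-3p (log2 fold change 0.23, SE 0.13, edgeR adjusted p = 0.274). For the other MYB-targeting families, miR828 and miR858, 2 sequences were listed, both of miR858, and 1 was tested. miR858a-5p, which acts on MYB regulators of flavonoid synthesis, had 16.8 ± 7.19 CPM with epiBL and 21.6 ± 1.76 CPM in controls (SD, n = 3 each, edgeR adjusted p = 0.501).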

How the data were processed

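Small RNA from 3 epiBL and 3 control samples was isolated with mirVana reagents, made into TruSeq libraries and read on an Illumina GA instrument, per the labels' protocols. The deposited table holds raw read counts of exact matches to mature miRNAs, per the file headers. The submitters' processing notes name TAIR10. The tools for trimming and alignment were not given in the sources used here. The same deposited table holds the authors' unadjusted p-value, its −log10, a signed fold and its log2, from an EDGE test whose header speaks of 0 min and 90 min, while both groups were harvested at 90 min per the labels, which set the groups here.

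Counts were filtered with filterByExpr (minimum 10, total 15), scaled by TMM and tested with edgeR 4.0.16 (quasi-likelihood, robust) in R 4.3.3, all 148 miRNAs together. Standard errors are the log2 fold change over the square root of F, and the biological coefficient of variation was 10.9%. limma 3.58.1 (arm ratios with 0.5 added) and DESeq2 1.42.0 were also used. Shares were compared with exact permutation tests in scipy 1.17.1. Likeness used log2 of CPM plus 0.5. The edgeR fit was tested on simulated counts, and the exact permutation test of shares and the base pairing on made-up inputs. The other procedures were not tested in this way. Alternatives were a replicate block, other tools, scalings and filters, and leaving out each library. All members are named, with the 3 most similar miRNAs, and from each list the most abundant and the smallest p. The members and lists were chosen with earlier results of these data known. Replicates are labelled biological with no word on separate cultures, and the p-values cover only the spread among these samples. PCR copies count as reads. Positions come from exact matches in RefSeq's TAIR10.1 assembly, not from the authors' copy of TAIR10.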

Additional observations from a re-analysis of the deposited data

How the results depend on the processing

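No member passed under any of the alternatives run, and the number called stayed at 0 throughout; the smallest adjusted p of any tested member was 0.189, for miR319c-3p without epiBL replicate 1. Directions near 0 changed, and the cause was not tested. miR159a-3p was 0.0228 in DESeq2, 0.0228 with RLE factors and 0.0140 with 10 counts in every library of a group. Total counts alone moved the median of all miRNAs to -0.13, with miR159b-3p at -0.10, the miR159 sum at -0.13 and the miR319 sum at -0.16. Over the 6 fits that leave out 1 library, log2 fold changes lay between -0.10 and 0.12 for miR159a-3p, -0.0283 and 0.10 for miR159b-3p, -0.12 and 0.0870 for miR319a/b-3p, -0.0815 and 0.0999 for the miR159 sum and -0.11 and 0.0848 for the miR319 sum. Those of miR159c-3p (0.30 to 0.64) and miR319c-3p (0.0340 to 0.28) kept their sign. With 1 library left out, the share of miR159b-3p differed by -0.143 to 1.17 points and that of miR319 by -0.370 to 0.0465 points. That of miR159c-3p differed by 0.00286 (without epiBL replicate 1) to 0.00723 points and that of miR319c-3p by 0.496 to 0.784 points. Libraries with the same replicate number did not deviate together (r of -0.0940, 0.139 and -0.108 across miRNAs), and 2 of 6 libraries were most like the one with their own number. With a replicate block 0 members passed, the miR159 sum was at 0.0271 and the miR319 sum at -0.00015, with 22 calls over all miRNAs, against 12 without it. Leaving out 1 library gave 5 to 25 calls over all miRNAs. At these depths miR159b-5p had 1 to 11 reads in a library.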
